A study of Mus musculus with 12 samples.

Results

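The 7 genes described here, Dclk1, Trpm5, Pou2f3, Gfi1b, Avil, Sh2d6 and Gnat3, are commonly used markers of intestinal tuft cells. They were taken by symbol from the 18514 genes of the read count table of mouse colorectal tissue, and all 7 were found and were expressed highly enough to be tested. The tissue came from male C57BL/6 mice bought at 4 weeks of age, 1 library per mouse and 3 mice in each of 4 groups. Ctrl mice received neither AOM/DSS nor swimming, and Ctrl_Swim mice were swimming-trained. Model mice received 1 intraperitoneal dose of azoxymethane (AOM, a colon carcinogen, 10 mg/kg) and 3 cycles of 2% dextran sulfate sodium (DSS, which injures the colon lining) of 7 days each, and Model_Swim mice received the same with swimming. Swimming lasted up to 90 min per day and began about 2 months before AOM, and mice that were not trained stood in shallow water. The colon was taken from the end of the cecum to the rectum. Markers of epithelium, nerve and immune cells were present in each library, and fewer tuft cells cannot be told apart from less RNA per tuft cell.

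Tuft cells are rare chemosensory cells of the gut epithelium. They sense luminal molecules through a taste-like cascade that runs from G protein-coupled receptors through G proteins such as gustducin to the cation channel TRPM5. They release IL-25, which activates type 2 innate lymphoid cells, and the IL-13 made by those cells acts back on the epithelium to raise tuft and goblet cells. The transcription factor POU2F3 is required for their formation.

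Among the 7, Gnat3 encodes the gustducin alpha subunit and Trpm5 the channel. Pou2f3 and Gfi1b are regulators; Gfi1b, a zinc finger repressor, also acts in the megakaryocyte and red cell lineages. Dclk1 encodes a microtubule-associated kinase that neurons also make, Sh2d6 an SH2 domain protein, and Avil the actin-binding protein advillin of the villin family, which sensory neurons also make.

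Avil was the 1 gene of the 7 that edgeR called in any comparison, and Trpm5 had the smallest p of the 7 in the swimming comparison without AOM/DSS. The RefSeq promoters of both (GRCm38.p6, 250 bases before to 50 after the start) are shown side by side. The Avil promoter lies at chr10:127000459-127000758 on the plus strand and the Trpm5 promoter at chr7:143094593-143094892 on the minus strand, and capitals mark the octamer-like letters ATGCAAA on either strand, which resemble the binding motif of POU factors.
Avil: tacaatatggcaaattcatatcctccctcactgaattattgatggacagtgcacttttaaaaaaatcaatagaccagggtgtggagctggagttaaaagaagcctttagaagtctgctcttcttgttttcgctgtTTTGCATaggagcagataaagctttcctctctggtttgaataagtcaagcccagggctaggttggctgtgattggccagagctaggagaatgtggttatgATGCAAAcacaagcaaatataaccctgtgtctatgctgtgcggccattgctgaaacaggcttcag
Trpm5: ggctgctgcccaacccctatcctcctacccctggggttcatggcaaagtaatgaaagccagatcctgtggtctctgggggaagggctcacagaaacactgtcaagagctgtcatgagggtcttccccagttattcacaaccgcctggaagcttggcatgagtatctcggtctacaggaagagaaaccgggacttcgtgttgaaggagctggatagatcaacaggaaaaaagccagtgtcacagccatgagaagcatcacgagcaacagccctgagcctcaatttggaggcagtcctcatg
Both capitalised stretches of Avil lie before its start, 115 bases (minus strand) and 15 bases (plus strand) upstream. Promoters were available for 6 of the 7 genes, and 4 motifs were searched in them on both strands: ATGCAAA, the longer ATGCAAAT that contains it, the letters GAGGAA (with the core of ETS factor sites), and AATCA (the core of GFI factor sites). Of 32851 promoters, 4.63% held ATGCAAA at least once and 0.292% held it 2 or more times, 1.74% held the longer motif, 28.3% held GAGGAA and 37% held AATCA. Among these genes, ATGCAAA was found in Avil alone, the longer motif in none, GAGGAA in Avil, Gnat3 and 1 of the 2 Dclk1 promoters, and AATCA in Avil, Gnat3, Gfi1b and the other Dclk1 promoter. With 4 motifs read in 6 genes, the pair in Avil is a description of its letters.

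Levels between genes were compared per length, in FPKM. Avil was highest on average (4.12 ± 1.54 FPKM, SD over 12 libraries), followed by Sh2d6 (3.32 ± 0.702), Trpm5 (2.15 ± 0.635), Dclk1 (2.13 ± 0.334), Gnat3 (1.27 ± 0.637), Pou2f3 (0.961 ± 0.242) and Gfi1b (0.277 ± 0.0825). The neighbours Avil and Sh2d6 did not separate, since Avil was above Sh2d6 in 5 of 12 libraries, nor did Trpm5 and Dclk1 (Trpm5 above in 4) or Gnat3 and Pou2f3 (Gnat3 above in 8). Sh2d6 was above Trpm5, Dclk1 above Gnat3, and Pou2f3 above Gfi1b in all 12 libraries. Gfi1b rested on 4 to 16 reads per library and Gnat3 on 7 to 47, against 105 to 304 for Trpm5, so the values of Gfi1b and Gnat3 are the least precise.

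The first question was whether AOM/DSS changed these genes, and the second whether swimming did, alone or on top of AOM/DSS. The test was edgeR's quasi-likelihood test with Benjamini-Hochberg adjustment over 15484 genes. In Model against Ctrl 0 of 7 were called (adjusted p under 0.05), where 32.7% of all genes were called. There 1 of 7 had an unadjusted p under 0.05 (45.2% of all genes), DESeq2 called 1 and limma 0. In Model_Swim against Model 0 of 7 were called (0.071% of all genes), 0 had an unadjusted p under 0.05 (13.6% of all genes), and DESeq2 and limma called 0. In Ctrl_Swim against Ctrl 0 of 7 were called (0.969% of all genes), 3 had an unadjusted p under 0.05 (17.6% of all genes), DESeq2 called 1 and limma 0. In Model_Swim against Ctrl_Swim 0 of 7 were called (5.18% of all genes), 2 had an unadjusted p under 0.05 (22.4% of all genes), DESeq2 called 1 and limma 0. With the AOM/DSS difference averaged over swimming, 1 of 7 was called, Avil, against 33.4% of all genes. In the interaction of swimming with AOM/DSS 0 of 7 and 0% of all genes were called. There 1 of 7 had an unadjusted p under 0.05 (19% of all genes), and DESeq2 and limma called 0. Over all 18514 genes DESeq2 called 5548 in Model against Ctrl, 361 in Model_Swim against Model and 658 in Ctrl_Swim against Ctrl. It called 1562 in Model_Swim against Ctrl_Swim and 777 in the interaction. Gfi1b, with a mean FPKM under 0.5, was not tested in limma.

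The median log2 fold change of the 7 was -0.23 in Model against Ctrl, 0.09 in Model_Swim against Model, -0.70 in Ctrl_Swim against Ctrl and 0.41 in Model_Swim against Ctrl_Swim, beside medians from -0.0101 to 0.00551 over all genes tested. All 7 fitted values lay below 0 in Ctrl_Swim against Ctrl, from -1.29 to -0.29. Markers of 4 other cell types, of which edgeR called only the goblet genes Agr2 and Clca1, lay as follows in the same comparison: all 7 goblet cell markers (median -0.69) and all 10 epithelial markers (median -0.22) had values below 0, and all 10 leukocyte markers (median 0.41) and all 9 enteric neuron markers (median 0.56) above 0. Enteroendocrine markers were mixed, with 6 of 8 above 0 (median 0.168) and 0 called. The part of these cell types in the tuft gene values was not tested. The comparisons with Ctrl share the same 3 control mice. Libraries of the groups did not overlap for 4 of 7 in Ctrl_Swim against Ctrl (27.4% of all genes), 2 of 7 in Model against Ctrl (44.2%), 2 of 7 in Model_Swim against Ctrl_Swim (32.4%) and 0 of 7 in Model_Swim against Model (16.9%).

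**Figure D1:**
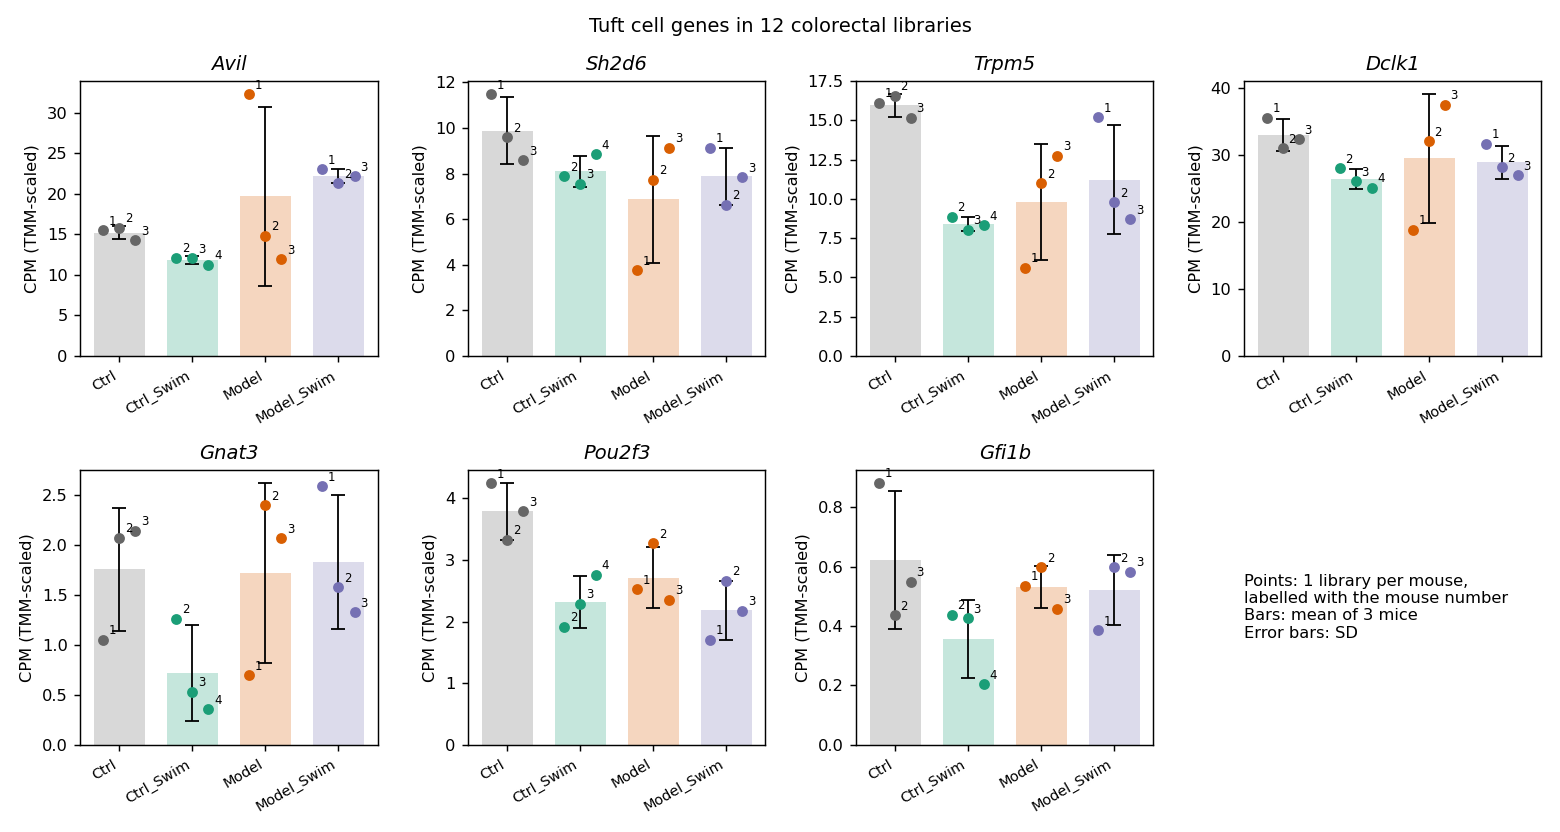
Normalised read counts (CPM, y axis) of the 7 genes by group (x axis), with 1 point per mouse labelled with its number, bars for the mean of 3 mice and error bars for the SD. Trpm5 was 15.2 to 16.6 CPM in Ctrl and 8.03 to 8.88 CPM in Ctrl_Swim, and Avil was 21.3 to 23.0 CPM in Model_Swim but 11.9 to 32.3 CPM in Model.

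Values in each library are given in CPM, counts scaled to the library size after TMM normalisation. Trpm5 (chromosome 7, 143069153 to 143094642, minus strand, GRCm38) was 16.1, 16.6 and 15.2 CPM in Ctrl mice 1 to 3 and 8.88, 8.03 and 8.33 CPM in Ctrl_Swim mice 2 to 4. All 3 Ctrl_Swim libraries were below all 3 Ctrl libraries. The log2 fold change of -0.92 (SE 0.272, 95% CI -1.52 to -0.33) had an edgeR adjusted p of 0.136. In Model mice 1 to 3 Trpm5 was 5.63, 11.0 and 12.7 CPM, also below every Ctrl library (log2 fold change -0.70, SE 0.27, edgeR adjusted p = 0.0654). In Model_Swim mice 1 to 3 it was 15.2, 9.79 and 8.69 CPM, so that mouse 1 lay within the Ctrl range and the other mice below it. The interaction of swimming with AOM/DSS was 1.12 on the log2 scale (SE 0.383, edgeR adjusted p = 0.163). DESeq2 called Trpm5 in Model against Ctrl (log2 fold change -0.70, adjusted p = 0.0348) and in Ctrl_Swim against Ctrl (-0.92, adjusted p = 0.0264). Over all 18514 genes DESeq2 called 5548 and 658 in these comparisons, in the same order. Trpm5 shares 220 of its 6398 exonic bases with Tssc4 on the opposite strand. Tssc4 was 20.6 to 21.7 CPM in Ctrl and 16.0 to 18.2 CPM in Ctrl_Swim. The part of Tssc4 reads in the Trpm5 values was not tested.

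Gnat3 (chromosome 5, 17962549 to 18019834, plus strand) was 1.05, 2.07 and 2.14 CPM in Ctrl, 1.26, 0.532 and 0.358 in Ctrl_Swim, 0.697, 2.40 and 2.07 in Model and 2.59, 1.58 and 1.33 in Model_Swim. Its lowest libraries were Ctrl_Swim 4 and 3, and Ctrl_Swim overlapped Ctrl through Ctrl 1. The log2 fold change in Ctrl_Swim against Ctrl was -1.29 (SE 0.571, edgeR adjusted p = 0.272). All Model_Swim libraries were above all Ctrl_Swim libraries (log2 fold change 1.35, SE 0.571, edgeR adjusted p = 0.193). In Model against Ctrl the value was -0.03, with a 95% CI from -1.23 to 1.17, which leaves changes of more than the fold cutoff of 2 in either direction within the interval.

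Dclk1 (chromosome 3, 55242364 to 55539068, plus strand) was 35.6, 31.0 and 32.4 CPM in Ctrl, 28.0, 26.1 and 25.2 in Ctrl_Swim, 18.9, 32.1 and 37.5 in Model and 31.7, 28.2 and 27.0 in Model_Swim. The 3 Ctrl_Swim libraries lay below Ctrl, while Model held both the lowest and the highest of the 12 libraries. Its log2 fold change was -0.32 (95% CI -0.74 to 0.10) in Ctrl_Swim against Ctrl and -0.16 (95% CI -0.58 to 0.26) in Model against Ctrl. Neurons also make Dclk1. The summed level of 9 enteric neuron markers was 156 to 188 CPM in Ctrl, 222 to 277 in Ctrl_Swim, 88.7 to 176 in Model and 171 to 185 in Model_Swim, with no marker at 0. That level was higher in Ctrl_Swim than in Ctrl while Dclk1 was lower, and Model 1 was lowest for both; its part in the Dclk1 values was not tested.

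Sh2d6 (chromosome 6, 72513641 to 72521707, minus strand) was 11.5, 9.60 and 8.58 CPM in Ctrl, 7.89, 7.56 and 8.84 in Ctrl_Swim, 3.75, 7.74 and 9.13 in Model and 9.14, 6.64 and 7.85 in Model_Swim. Model 1 was lowest and every pair of groups overlapped. Its log2 fold change in Model against Ctrl was -0.53 (95% CI -1.12 to 0.07, edgeR adjusted p = 0.152).

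Pou2f3 (chromosome 9, 43123939 to 43210369, minus strand) was 4.25, 3.33 and 3.79 CPM in Ctrl, 1.92, 2.29 and 2.76 in Ctrl_Swim, 2.52, 3.27 and 2.35 in Model and 1.71, 2.67 and 2.17 in Model_Swim. Each Ctrl library was above all 9 others. The log2 fold change was -0.70 (SE 0.244, edgeR adjusted p = 0.191) in Ctrl_Swim against Ctrl and -0.48 (SE 0.243, edgeR adjusted p = 0.147) in Model against Ctrl.

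Gfi1b (chromosome 2, 28609450 to 28621982, minus strand) was 0.883, 0.436 and 0.550 CPM in Ctrl, 0.438, 0.426 and 0.204 in Ctrl_Swim, 0.536, 0.599 and 0.459 in Model and 0.385, 0.598 and 0.583 in Model_Swim. The groups overlapped in Model against Ctrl, in Ctrl_Swim against Ctrl and in both Model_Swim comparisons. The interval of its log2 fold change in Model against Ctrl ran from -1.17 to 0.72, so it holds a fall by the fold cutoff of 2 but not a rise of that size.

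Avil (chromosome 10, 127000709 to 127020994, plus strand) was 15.5, 15.8 and 14.3 CPM in Ctrl and 12.1, 12.1 and 11.2 in Ctrl_Swim. It was 32.3, 14.8 and 11.9 CPM in Model and 23.0, 21.3 and 22.2 in Model_Swim. The 3 Model_Swim libraries lay between 21.3 and 23.0 CPM, above every Ctrl and Ctrl_Swim library, whereas in Model only mouse 1 did. Averaged over swimming, Avil rose with AOM/DSS by 0.64 on the log2 scale (SE 0.199, 95% CI 0.20 to 1.08, edgeR adjusted p = 0.0298). The separate differences were 0.37 in Model against Ctrl (SE 0.281, edgeR adjusted p = 0.327) and 0.91 in Model_Swim against Ctrl_Swim (SE 0.283, edgeR adjusted p = 0.0897). The averaged call was lost without any 1 Ctrl, Ctrl_Swim or Model_Swim mouse (0.63 to 0.66, adjusted p 0.0515 to 0.0669) and held without Model 1, where the difference was 0.37 (adjusted p = 0.0042). It was also lost with the level of the epithelial (0.50, adjusted p = 0.564), acinar (0.43, adjusted p = 0.155) or squamous markers (0.45, adjusted p = 0.286) as a covariate. With these covariates the SE was 0.4, 0.212 and 0.274. Calls over all genes went from 5175 to 155, 4462 and 2423. The part of these markers in the Avil values was not tested. Avil shares 165 of its 3398 exonic bases with Tsfm on the opposite strand. Tsfm was 22.1 to 23.1 CPM in the groups without AOM/DSS and 15.9 to 19.5 CPM with it. The part of Tsfm reads in the Avil values was not tested.

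**Figure D2:**
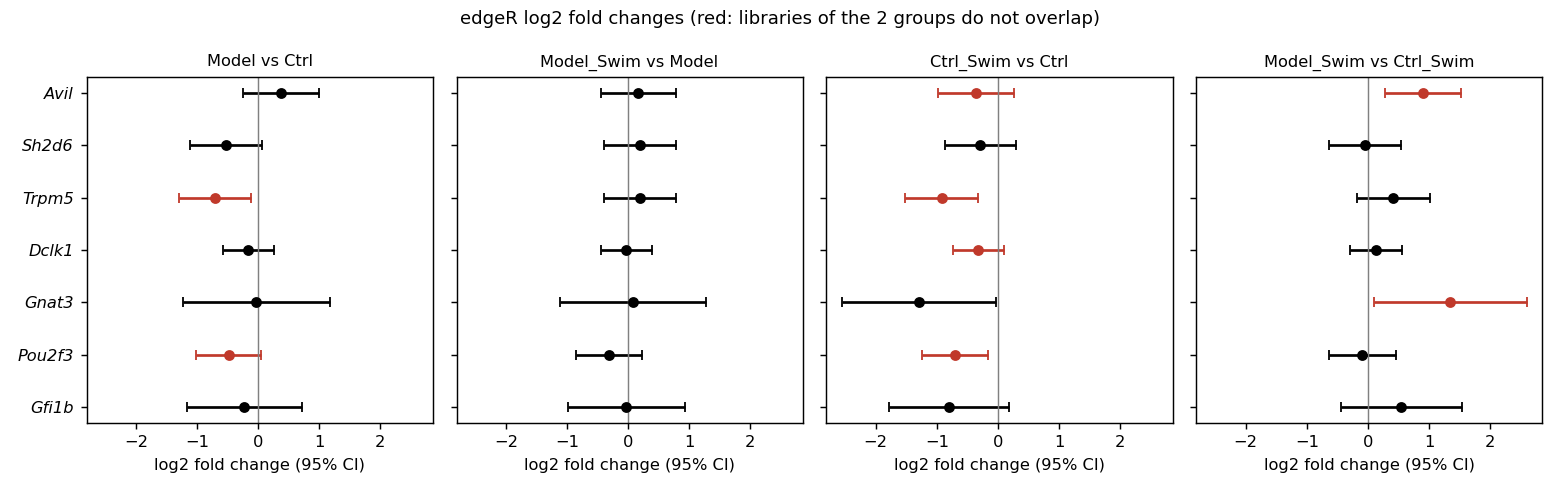
Fitted log2 fold changes (x axis) of the 7 genes (y axis) in 4 comparisons, with 95% confidence intervals, red where the libraries of the compared groups did not overlap. In Ctrl_Swim against Ctrl all 7 points lie below 0, from -1.29 for Gnat3 to -0.29 for Sh2d6, and in Model_Swim against Model they lie between -0.31 and 0.20.

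Model 1 stood apart. It held the lowest Dclk1, Trpm5 and Sh2d6 and the highest Avil of the 12 libraries. The summed level of 13 pancreatic acinar markers was 43720 CPM in Model 1 and 21080 CPM in Model 3, against 12.3 to 95.9 CPM in the other 10 libraries, and 9 squamous epithelium markers summed to 508 CPM in Model 1 against 3.63 to 4.69 CPM in Ctrl, although Model 2 (1414 CPM), Model_Swim 3 (1059 CPM) and Model_Swim 2 (948 CPM) held more and Ctrl_Swim 4 held 350.0 CPM. Their part in the tuft gene values was not tested. Without Model 1 the SE of the Avil difference in Model_Swim against Ctrl_Swim went from 0.283 to 0.0981. In that fit Avil was called in Model_Swim against Model (log2 fold change 0.72, edgeR adjusted p = 0.0465), where 22 of 15635 genes were called. Avil was also called in Model_Swim against Ctrl_Swim (0.90, adjusted p = 0.00246, 1394 genes called) and in the interaction (1.07, adjusted p = 0.0299, 70 genes called). In the same fit Trpm5 was called in Ctrl_Swim against Ctrl (-0.91, edgeR adjusted p = 0.0381, 302 genes called), while its difference in Model against Ctrl was -0.41 (adjusted p = 0.14). Without Model 3, Trpm5 (-0.93, adjusted p = 0.024) and Sh2d6 (-0.78, adjusted p = 0.0436) were called in Model against Ctrl, where 5620 of 15681 genes were called.

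**Figure D3:**
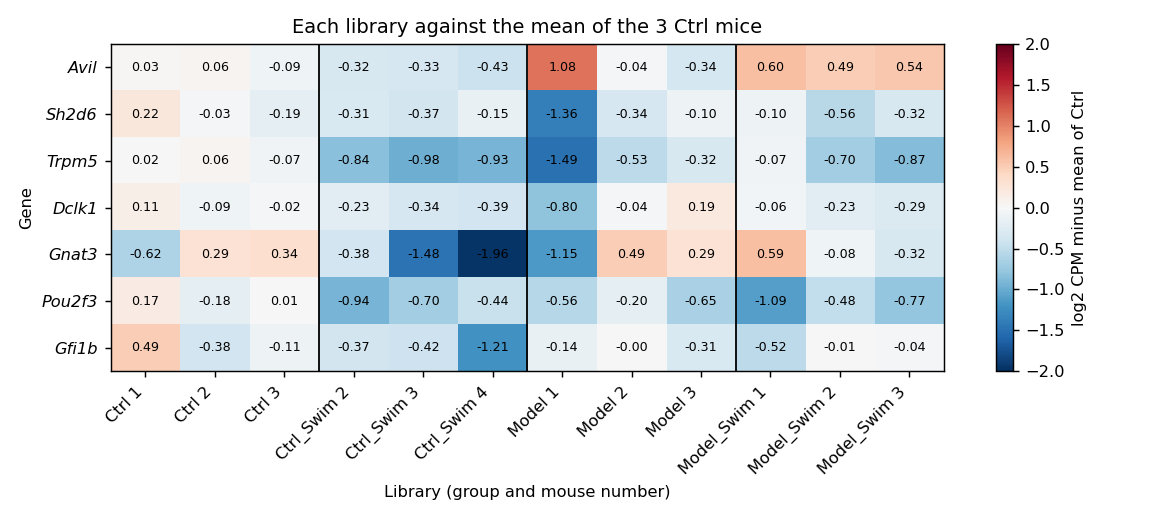
Log2 CPM of each gene (rows) in each library (columns) minus the mean of the 3 Ctrl mice, from blue (lower) to red (higher). Trpm5 and Pou2f3 are below the Ctrl mean in all 9 other libraries, and Model 1 combines the lowest Sh2d6, Trpm5 and Dclk1 with the highest Avil.

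Variation within groups was described by the correlation of log2 CPM after each group's mean was removed, over 12 libraries that share no mouse. Dclk1 varied with Trpm5 (Pearson r = 0.907, Spearman rho = 0.818), Dclk1 with Sh2d6 (r = 0.922, rho = 0.699) and Trpm5 with Sh2d6 (r = 0.875, rho = 0.783). Avil ran the other way, with r = -0.916 against Dclk1 (rho = -0.462) and -0.857 against Sh2d6 (rho = -0.434). Without Model 1 the values for Dclk1, Trpm5 and Sh2d6 were 0.711, 0.592 and 0.583 in the same order, and those for Avil were -0.221 and -0.0241, so the opposite course of Avil rests on that library. Pou2f3 had r = -0.0557 with Dclk1 and -0.242 with Trpm5, and -0.54 and -0.641 without Model 1.

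**Figure D4:**
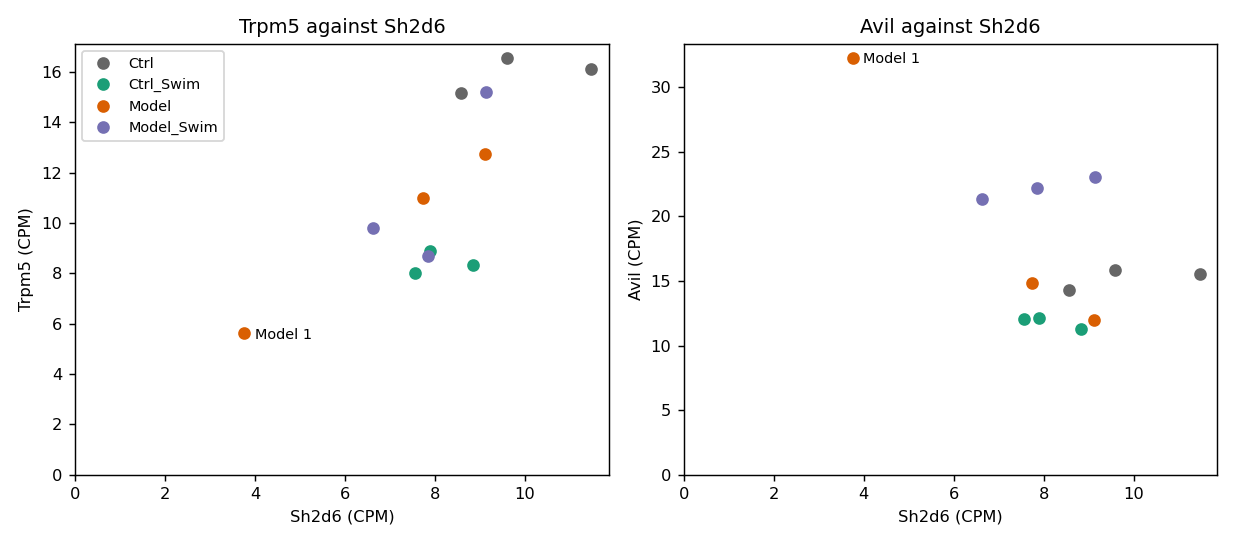
CPM of Trpm5 (left, y axis) and Avil (right, y axis) against Sh2d6 (x axes), 1 point per library, coloured by group. Model 1 is at 3.75 CPM of Sh2d6 in both panels, lowest for Trpm5 at 5.63 CPM and highest for Avil at 32.3 CPM.

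The 10 genes whose within-group course was most like the mean of the 7 were Slco2a1 (Pearson r = 0.981 over 12 libraries), Ank3, Tor3a, Slc6a17, Ralgds, Aff1, Stmn3, Zfp456, Syngr3 and Fer1l6 (r = 0.931). Without Model 1 these values ranged from 0.675 to 0.968. None of the 10 belongs to the tuft lists used below, in which the closest were Fam221a (rank 38 of 15484 genes) and Hpgds, the prostaglandin D synthase of tuft and mast cells (rank 68).

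Epithelial marker RNA was lower in Model than in Ctrl. Of 10 epithelial markers 8 fell in Model against Ctrl, where 2504 of all 15484 genes fell, and their sum was 13670 to 15530 CPM in Ctrl, 11010 to 14140 in Ctrl_Swim, 10350 to 10700 in Model and 11490 to 12260 in Model_Swim. Per 1000 CPM of these markers Trpm5 was 1.09 ± 0.118 CPM in Ctrl (SD, n = 3), 0.687 ± 0.0649 in Ctrl_Swim, 0.937 ± 0.365 in Model and 0.945 ± 0.294 in Model_Swim. Ctrl_Swim stayed below Ctrl on this scale (0.628 to 0.756 against 0.977 to 1.21), while Model overlapped Ctrl. The other 3 genes whose Ctrl_Swim and Ctrl libraries did not overlap in CPM came to overlap on this scale: Dclk1 (1.98 to 2.28 against 2.08 to 2.38), Pou2f3 (0.136 to 0.251 against 0.243 to 0.284) and Avil (0.856 to 1.02 against 0.92 to 1.16). Avil was 1.04 ± 0.118 in Ctrl, 0.965 ± 0.0942 in Ctrl_Swim, 1.86 ± 1.01 in Model and 1.86 ± 0.0619 in Model_Swim (n = 3 each), so Model_Swim stayed above both groups without AOM/DSS. Sh2d6 was 0.658 to 0.673 on average in the 4 groups.

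A further 47 genes known from tuft cells were read in 5 lists, of which 43 were tested. In Model against Ctrl 14 of 43 were called, 10 up and 4 down, against 32.7% of all genes. Of the 10 that rose, 7 are in the list of 11 genes that leukocytes also make: Fyb, Inpp5d, Lrmp, Pik3cg, Ptpn6, Rac2 and Vav1, with Rac2, a small GTPase, rising by 1.09 on the log2 scale (edgeR adjusted p = 0.0144). All 10 leukocyte markers also rose (2562 of all 15484 genes did), and their sum was 746 to 844 CPM in Ctrl and 1316 to 2235 CPM in Model; their part in these values was not tested. The other 3 that rose were Il4ra, a receptor subunit for IL-4 and IL-13, Spib, an ETS factor, and Cd300lf, the mouse norovirus receptor. They rose by 0.85 (edgeR adjusted p = 0.00031), 0.68 (adjusted p = 0.0264) and 1.21 (adjusted p = 0.00718). The lists do not show which cells made these 3, and the part of leukocytes in their values was not tested.

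The 4 that fell in Model against Ctrl were Rgs13, Alox5, Bmx and Fam221a. Rgs13, a regulator of G protein signalling, was 8.34, 6.60 and 6.98 CPM in Ctrl and 1.93, 2.56 and 4.94 CPM in Model, and fell by 1.22 on the log2 scale (edgeR adjusted p = 0.0149). Alox5, the leukotriene-forming lipoxygenase, was 9.11, 6.49 and 8.14 CPM in Ctrl and 5.52, 4.69 and 5.17 CPM in Model, and fell by 0.63 (adjusted p = 0.0224). Both were lower in every Model library than in any Ctrl library. Bmx, a Tec family kinase, fell by 0.71 (adjusted p = 0.0491). Fam221a was 23.1, 16.0 and 14.5 CPM in Ctrl, 3.70, 9.48 and 7.98 in Model and 5.15, 4.95 and 3.12 in Ctrl_Swim, and fell in Model by 1.34 (adjusted p = 0.0161) and in Ctrl_Swim by 2.02 (adjusted p = 0.0372).

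Fam221a was the only 1 of the 43 called in Ctrl_Swim against Ctrl, and that call was lost without any 1 Ctrl or Ctrl_Swim mouse. In Model_Swim against Model 0 of 43 were called by edgeR, and 7 had an unadjusted p under 0.05 (13.6% of all genes). DESeq2 called 1 there, Spib, and 361 of all 18514 genes. In Model_Swim against Ctrl_Swim 1 of 43 was called, Il4ra, which rose by 0.62 on the log2 scale (edgeR adjusted p = 0.00342). With AOM/DSS averaged over swimming 13 of 43 were called, 12 up and 1 down, against 33.4% of all genes. In the interaction edgeR called 0 of 43, and 9 had an unadjusted p under 0.05 (19% of all genes). DESeq2 called 2 there, Fam221a and Spib, and 777 of all 18514 genes.

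**Figure D5:**
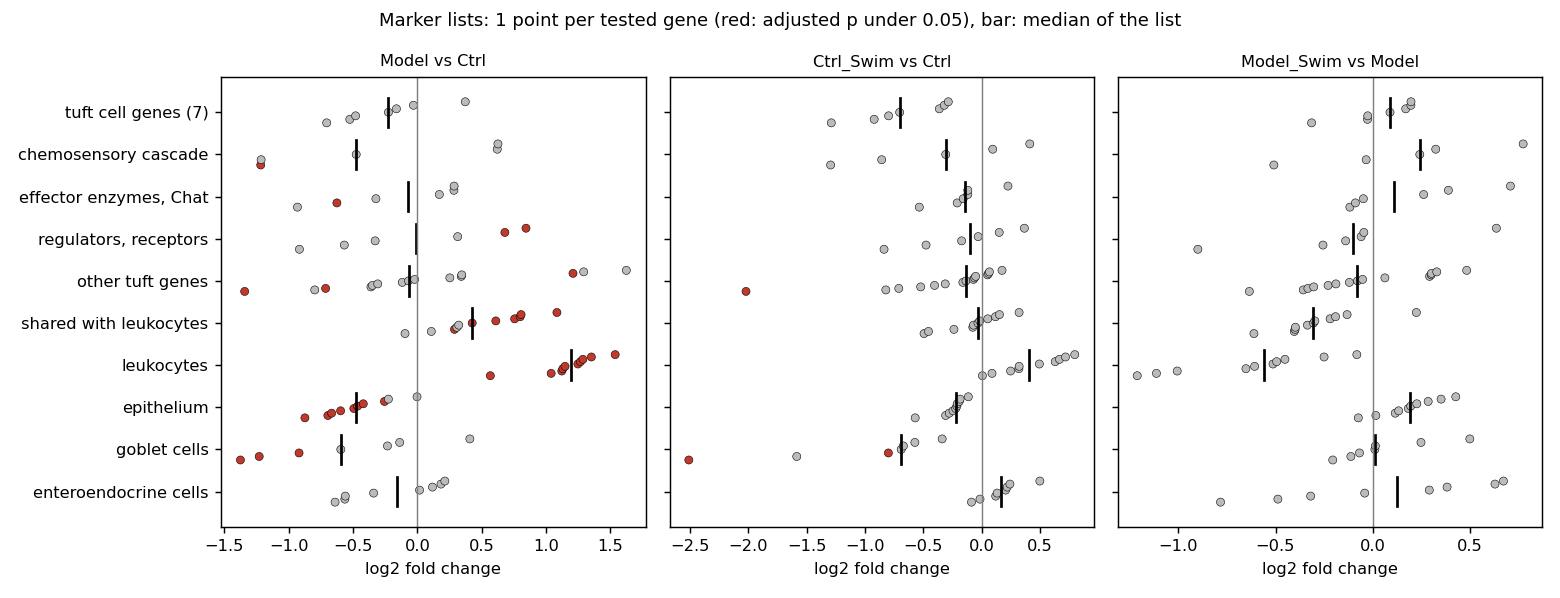
Log2 fold changes (x axis) of the tested genes of 10 marker lists (y axis) in 3 comparisons, with 1 point per gene, red where the edgeR adjusted p was under 0.05, and a bar at the median of each list. In Model against Ctrl all 10 leukocyte markers are red and above 0, 8 of 10 epithelial markers are red and below 0, and none of the 7 tuft cell genes is red.

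In the type 2 circuit that tuft cells start, the cytokine genes were barely detected: Il25 had 0 to 5 reads per library and was not tested, and Il13 had 0 to 22 reads. Retnlb, a goblet cell gene that IL-13 induces, was 2447, 1896 and 1655 CPM in Ctrl, 497, 310 and 256 in Ctrl_Swim, 140, 486 and 397 in Model and 575, 404 and 178 in Model_Swim. All 9 other libraries were below every Ctrl library. Retnlb fell by 2.55 on the log2 scale in Model (edgeR adjusted p = 0.00388) and by 2.50 in Ctrl_Swim (adjusted p = 0.0465); without Ctrl 1, Ctrl 3 or Ctrl_Swim 3, 0 genes were called in Ctrl_Swim against Ctrl, so the second call is lost there. The summed level of the 7 goblet cell markers was lower in the same groups. It was 37680 to 48250 CPM in Ctrl, 13830 to 18020 in Ctrl_Swim, 14250 to 34440 in Model and 17080 to 31030 in Model_Swim. Not every marker was lower. Zg16 averaged 1354 CPM in Ctrl, 1797 in Model and 1558 in Model_Swim, and Tff3 averaged 380.5 in Ctrl and 411.1 in Model_Swim. Of the 7 goblet cell markers, 2 fell in Ctrl_Swim (Agr2 and Clca1), where 124 of all 15484 genes fell. In Model 3 fell (with Spdef), where 2504 of all genes fell. Their part in the Retnlb values was not tested. Il1rl1, the IL-33 receptor, rose in Model by 1.08 (adjusted p = 0.0202).

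Paralogs of the 7 genes were read beside them, since similar copies can share reads. Of 15 paralogs tested, 4 rose and 6 fell in Model against Ctrl, where 32.7% of all genes were called. In the villin family of Avil, Vill rose by 1.70 (edgeR adjusted p = 0.0027), and Scin and Vil1 fell by 1.29 and 0.49 (adjusted p = 0.00404 and 0.00359). Dclk3 fell by 1.32 and Dclk2 rose by 0.49 (adjusted p = 0.00313 and 0.0361), while Dclk1 itself gave -0.16 (adjusted p = 0.538). Trpm4, the channel closest to Trpm5, fell by 0.52 (adjusted p = 0.048).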

How the data were processed

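Colorectal RNA of 12 mice was sequenced as stranded mRNA libraries. The authors trimmed the reads, aligned them with HISAT2 to GRCm38.p6 and counted them per gene with HTSeq-count; the deposited raw counts were used. The strand setting of the counting and the annotation release are not given in the sources used here. The authors' deposited FPKM values, made with Cufflinks, were used to compare levels between genes and, as log2(FPKM + 1) or log2(FPKM + 0.1), in limma 3.58.1. Total counts were 17256953 to 19451055 per library; Gfi1b had 4 to 16 reads per library and Gnat3 7 to 47. No pair of libraries of 1 group agreed within sampling noise; pairs across groups were not compared. The number of columns from other samples was 0.

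Groups followed the labels. All 12 libraries entered 1 fit of the 4 groups in edgeR 4.0.16 (R 4.3.3) with TMM scaling and filterByExpr at a minimum count of 10, which left 15484 of 18514 genes. A gene was called at an adjusted p under 0.05 over all genes tested; 6 comparisons were made. The p-values set each difference between groups against the spread between mice, for which the 4 groups shared 1 estimate per gene. The scripts were tested on simulated data. DESeq2 1.42.0 and the other alternatives are given in the closing section. Loci came from GENCODE and promoters from RefSeq; both use GRCm38.

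The members, the marker lists and the motifs were chosen with earlier results of these data known. Named were the 7 genes, list genes called in Model against Ctrl or Model_Swim against Model, the 3 highest of each list, and the 10 genes most alike. Genes named outside this rule, such as Hpgds, Il25 and Il13, and the genes overlapping Avil and Trpm5, were chosen after their values were seen. All 4 motifs searched are reported.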

Additional observations from a re-analysis of the deposited data

How the results depend on the processing

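Of the 7 genes' log2 fold changes, 892 of the recomputed values kept their direction and side of the threshold, 17 became called, 13 lost the call and 58 changed sign, none of the last a called value. The squamous covariate was chosen after seeing the data; the cause of each change was not tested. For the 7 genes, DESeq2 called 1 in Model against Ctrl, 1 in Ctrl_Swim against Ctrl and 1 in Model_Swim against Ctrl_Swim. A fit of only the groups compared called 1 in each of the last 2. Over all genes DESeq2 called 5548, 658 and 1562 of 18514 in the same order of comparisons. The fit of only the groups compared called 368 of 14767 and 1289 of 15014 in the last 2. Avil's averaged call went to 0 with the replicate block, the fold cutoff and the epithelium (0.50), acinar (0.43) or squamous (0.45) covariate, against 0.64. Over all genes 5175 calls became 4379, 665, 155, 4462 and 2423 in the same order of settings. Leaving out Model 1 and Model 3 leaves 1 Model mouse, assumed to vary like the other groups, so only log2 fold changes are given. For Avil they were 0.60 in Model_Swim against Model, 0.90 in Model_Swim against Ctrl_Swim and 0.95 in the interaction. In Ctrl_Swim against Ctrl they were -0.92 for Trpm5 and -0.36 for Avil. Leaving out 1 mouse at a time gave 0 to 2 in Model against Ctrl and 0 to 1 in each other comparison. The sources used here do not say that the replicate numbers pair the mice. Libraries of different groups with the same number had correlations of deviations from -0.258 to 0.563. Libraries with different numbers were not compared, so these values cannot settle pairing. The replicate block gave Avil's averaged difference as 0.50 (adjusted p = 0.0947).

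For the 43 further tuft genes the counts of calls moved, as did the counts over all genes. In Model against Ctrl the count of 14 became 4 with the fold cutoff, 0 with the epithelium covariate (with which 0 of 15484 genes were called at all), 4 with the acinar covariate and 6 with the squamous covariate, and 8 to 18 without 1 mouse. Over all genes 5066 calls became 1150 with the fold cutoff, 3082 with the acinar covariate and 2678 with the squamous covariate. In Model_Swim against Model the count of 0 became 1 with DESeq2, and 0 to 1 without 1 mouse. Over all genes 11 calls became 361 of 18514 with DESeq2, and 6 to 882 without 1 mouse. In Ctrl_Swim against Ctrl the count of 1 became 2 with only the groups compared, 0 with the replicate block, 0 in limma on log2(FPKM + 1), 0 in limma on log2(FPKM + 0.1), 0 with the epithelium covariate and 0 with the squamous covariate, and 0 to 1 without 1 mouse. Over all genes 150 calls became 368, 1, 51, 53, 6 and 56 in the same order of settings. In Model_Swim against Ctrl_Swim the count of 1 became 4 with DESeq2, 6 with only the groups compared and 0 with the fold cutoff. It became 2 in limma on log2(FPKM + 1), 2 in limma on log2(FPKM + 0.1), and 1 to 5 without 1 mouse. Over all genes 802 calls became 1562, 1289, 155, 1067, 1065 and 170 to 1459 in the same order of settings. With AOM/DSS averaged over swimming the count of 13 became 3 with the fold cutoff, 1 with the epithelium covariate, 8 with the acinar covariate and 5 with the squamous covariate, and 7 to 16 without 1 mouse. Over all genes 5175 calls became 665, 155, 4462 and 2423 in the same order of settings. In the interaction the count of 0 became 2 with DESeq2, and 0 to 3 without 1 mouse. Over all genes 0 calls became 777 of 18514 with DESeq2, and 0 to 716 without 1 mouse.

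Without Model 1 and Model 3 the log2 fold changes that changed sign were -0.057 for Avil and 0.43 for Gnat3 in Model against Ctrl, -0.37 for Gnat3 in Model_Swim against Model and 0.031 for Dclk1 in the averaged difference. With the acinar covariate the log2 fold changes that changed sign were 0.0089 for Dclk1, -0.11 for Avil and 0.57 for Gnat3 in Model against Ctrl, -0.13 for Trpm5, -0.17 for Sh2d6 and -0.80 for Gnat3 in Model_Swim against Model and 0.061 for Dclk1 in the averaged difference. With the epithelium covariate the log2 fold changes that changed sign were 0.24 for Dclk1, 0.71 for Gfi1b and 1.95 for Gnat3 in Model against Ctrl, -0.72 for Gnat3 in Model_Swim against Model, 0.20 for Dclk1 and 0.014 for Trpm5 in the averaged difference and -0.093 for Dclk1, -0.093 for Gfi1b and -0.35 for Gnat3 in the interaction. In limma on log2(FPKM + 0.1) the log2 fold changes that changed sign were 0.011 for Dclk1 in Model_Swim against Model and 0.0019 for Dclk1 in the averaged difference. In limma on log2(FPKM + 1) the log2 fold changes that changed sign were 0.018 for Gnat3 in Model against Ctrl and 0.0069 for Dclk1 in the averaged difference. With the replicate block the log2 fold changes that changed sign were 0.078 for Pou2f3 and 0.060 for Sh2d6 in Model_Swim against Ctrl_Swim. With the squamous covariate the log2 fold changes that changed sign were 0.017 for Dclk1 and 0.22 for Gnat3 in Model against Ctrl, 0.051 for Dclk1 in Model_Swim against Model, 0.065 for Sh2d6 in Model_Swim against Ctrl_Swim and 0.14 for Dclk1 and 0.059 for Trpm5 in the averaged difference. Leaving out 1 mouse at a time also changed signs, with ranges of -0.37 to 0.089 for Dclk1, -0.41 to 0.13 for Gfi1b, -0.17 to 0.65 for Avil and -0.33 to 0.36 for Gnat3 in Model against Ctrl, -0.27 to 0.20 for Dclk1, -0.089 to 0.44 for Trpm5, -0.15 to 0.14 for Gfi1b, -0.085 to 0.72 for Avil, -0.10 to 0.47 for Sh2d6 and -0.29 to 0.40 for Gnat3 in Model_Swim against Model, -0.27 to 0.051 for Pou2f3 and -0.17 to 0.059 for Sh2d6 in Model_Swim against Ctrl_Swim and -0.12 to 0.11 for Dclk1 in the averaged difference.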

Other observations

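Taken alone, and chosen after its values were seen, Avil had a different set of most similar genes than the 7 together. By within-group Pearson r over 12 libraries these were Spock2 (r = 0.991), Htra1, Tubb4a, Prox1, Ppm1g, Gstm5, Nkd1, Wdr6, Tenm4 and Axin2 (r = 0.969). Nkd1 and Axin2 are known targets of Wnt signalling. Without Model 1 the values ranged from 0.41 to 0.87. Of the further tuft genes, Krt23 was 49.6 CPM in Model 1 and at least 7.69 CPM in the other 11 libraries, all below Model 1, and Nebl was 35.1 CPM in Model 1 and 3.16 to 17.1 CPM in the others, so both shared their highest library with Avil.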
